A study of Mus musculus with 20 samples.

Results

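The experiment compared formalin with noninjected lumbar dorsal root ganglia in mice recorded as deleted for Prdm12, with both libraries of each animal kept as a pair. Members were all libraries whose deposited counts carry the genotype word icKO (inducible conditional knockout), apart from 1 animal whose formalin library summed to only 2829 counts. This gave 8 of the 20 libraries and 4 of the 10 animals of the series, 4 libraries with formalin and 4 without. The animals are titled control 1, control 4, icKO 4 and icKO 5, and sets of 4 values below always follow that order.

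The study sequenced polyA RNA of ganglia L3 to L5 of adult C57Bl6 mice 1 month after tamoxifen. The animals titled icKO 4 and icKO 5 are males labelled AdvCreERT2; P12 Fl/Fl TAM, that is, floxed Prdm12 alleles, a tamoxifen-inducible Cre recombinase under the name Adv, and tamoxifen. Those titled control 1, a female, and control 4, a male, are labelled P12 Fl/Fl TAM with no Cre, so for these animals the title and the deposited word give opposite genotypes. The series text names a Rosa26 CreERT2 driver instead of Adv, and the labels do not settle which was used. Floxed Prdm12 alleles and tamoxifen are common to all animals, the comparison animals included. Neither the injected site and side nor the interval between formalin and dissection is given in the labels. Another 5 animals carry the deposited word for control (titles control 2, 3 and 5 and icKO 2 and 3) and are called intact below, although icKO 2 and 3 are labelled with the Cre.

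Formalin injected into skin is a standard irritant that excites nociceptors, the sensory neurons that report painful stimuli, and then causes local inflammation. Prdm12 is a transcriptional regulator that is needed to form nociceptors in the embryo and stays on in them in the adult. Sensory neurons whose axons are damaged switch on Atf3, a stress-induced transcription factor, and Sox11, a transcription factor of axon regrowth, so both genes serve as markers of nerve injury in ganglia.

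Library totals of the 8 libraries ran from 12136431 to 22392635 counts, and levels are given as CPM (each library brought to a total of 1e+06, with TMM factors that correct for differences in composition). At this depth 1 CPM corresponds to more than 10 counts in any library. Neuronal markers were abundant in all 8 libraries, for example Tubb3 at 1908 ± 444 CPM with formalin and 2404 ± 109 CPM without (SD, n = 4 each). Of 8 genes listed for central nervous tissue, the oligodendrocyte genes Olig2, Olig1 and Mog had at most 1, 6 and 10 counts in any of the 8 libraries. The other 5 were tested, summed to 267 to 336 CPM in every library, and had 4 positive folds.

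Prdm12 itself (ENSMUSG00000079466) was low in all 4 animals. It stood at 23.2, 38.9, 22.1 and 23.2 CPM in the noninjected libraries and at 28.4, 26.3, 15.6 and 14.4 CPM in the formalin libraries. All 8 values lay below the 73.7 to 115 CPM of the 10 libraries of intact animals, so the transcript sides with the deposited word and against the titles of control 1 and control 4. The labels do not say which exons are floxed, so part of the remaining signal may come from reads outside them. With formalin Prdm12 was lower in 3 animals and higher in control 1, with a log2 fold of -0.36 ± 0.17 (SE, 4 pairs). Its adjusted p was 0.500 (edgeR quasi-likelihood test with animal as block, Benjamini-Hochberg over all genes), and the exact two-sided sign-flip permutation p was 0.25. Without the animal labelled control 1 the fold was -0.58 and the adjusted p 0.0438 by the same edgeR test.

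No gene passed the threshold of 0.05 between formalin and noninjected ganglia over the 4 animals: 0 of 17293 genes were higher (0%) and 0 lower (0%), and the smallest adjusted p was 0.500. At an unadjusted p under 0.05 edgeR gave 1629 genes (9.42%), 763 higher (4.41%) and 866 lower (5.01%), and DESeq2 called 16 genes after adjustment. By limma-voom 0 genes passed, with 1718 at an unadjusted p under 0.05, and without the filter on low counts edgeR called 755 of 35904. Those 755 included the muscle gene Ckm, high with formalin in icKO 5 and control 4 only. A pass in that fit therefore does not show agreement between animals. The 4 animals gave 1517 genes (8.77%) that were higher with formalin in every pair and 1819 (10.5%) that were lower in every pair, and 52.2% of all genes had a positive fold. Because nothing passed over all 4 animals, the values below are described as higher or lower and are not called changes.

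This count turned on the animal labelled control 1. Without it, 424 of 17303 genes passed in the same edgeR test over the other 3 animals, 329 higher (1.9%) and 95 lower (0.549%), while leaving out control 4, icKO 4 or icKO 5 gave 0 genes each. Across 17293 genes, the formalin differences of control 1 correlated at -0.39 with those of icKO 4 (Pearson r), at -0.16 with icKO 5 and at -0.02 with control 4. The other 3 animals correlated with each other at 0.24 to 0.38. These are descriptions across genes, which are not independent, and each pair of animals shares no library. The counts of list members passing without control 1, given below, were added after the data were seen. Leaving out the animal that ran the other way favours genes on which the other 3 agree. Counts and adjusted p without control 1 are therefore descriptions and no separate evidence for a list. Control 1 is also the only female among the 4, so its sex and its other properties cannot be told apart. The standard deviation of the log2 difference over genes was lowest in control 1 (0.37) and highest in icKO 5 (0.64), with control 4 at 0.44 and icKO 4 at 0.52.

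Atf3 (ENSMUSG00000026628) was higher with formalin in each of the 4 animals. Noninjected ganglia held 8.65, 10.1, 8.55 and 7.96 CPM and formalin ganglia 11.4, 12.8, 11.8 and 21.2 CPM. The 2 groups did not overlap, and icKO 5 stood well above the other formalin libraries. The log2 fold was 0.66 ± 0.20 (SE, 4 pairs), with an adjusted p of 0.500 in edgeR and an exact two-sided sign-flip permutation p of 0.125, the smallest that 4 pairs allow. In intact animals Atf3 was higher with formalin in 4 of 5, and the difference between the deleted and intact folds was 0.13 ± 0.44 (SE; adjusted p = 0.884, edgeR interaction). Without icKO 5 the fold was 0.41, and without the filter on low counts Atf3 passed in edgeR (log2 fold 0.64, adjusted p = 0.0111).

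Sox11 (ENSMUSG00000063632) was higher in each animal too, but hardly so in control 4 and icKO 4. Its levels were 10.3, 12.9, 12.3 and 13.0 CPM without and 12.3, 12.9, 12.4 and 21.5 CPM with formalin, and the groups overlapped. Within animals the log2 differences were 0.26, 0.00, 0.01 and 0.72, so icKO 5 was again highest. The log2 fold was 0.25 ± 0.15 (SE; adjusted p = 0.523, edgeR; exact sign-flip permutation p = 0.125). Without icKO 5 it was 0.10, and the intact animals gave 0.29 ± 0.11 (SE, adjusted p = 0.249, edgeR).

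**Figure D1:**
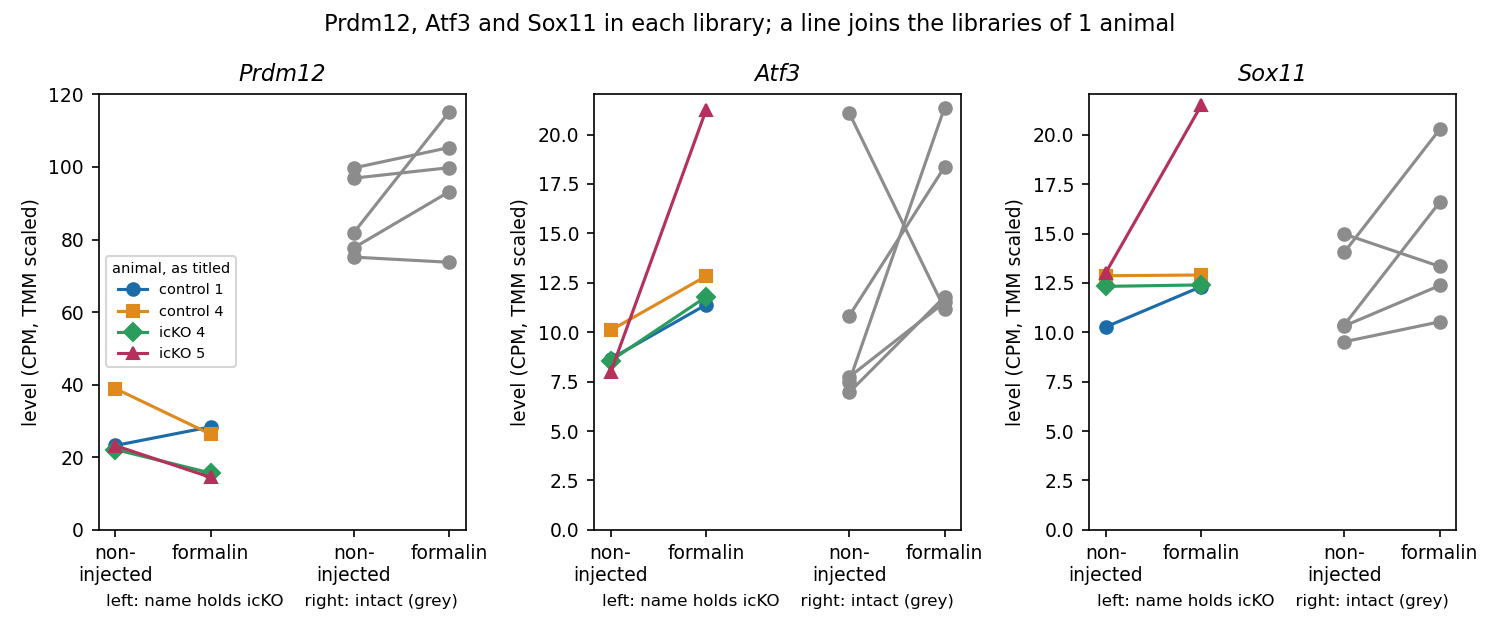
Prdm12, Atf3 and Sox11 in CPM in noninjected and formalin libraries, with a line joining the libraries of an animal, for the 4 deleted animals (coloured, left) and the 5 intact animals (grey, right). Atf3 was higher with formalin in all 4 deleted animals, with the steepest line in icKO 5, and Prdm12 was at 38.9 CPM or less in the 8 deleted libraries.

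The start of Atf3 is shown because ATF3 protein and its relatives bind sites of the ATF/CRE family, and the sequence holds a near match beside the start. The 250 bases before the start are from RefSeq (GRCm38.p6, chr1:191183334-191183583, minus strand), written 5′ to 3′ with the 8-base match in capitals.
Atf3 promoter: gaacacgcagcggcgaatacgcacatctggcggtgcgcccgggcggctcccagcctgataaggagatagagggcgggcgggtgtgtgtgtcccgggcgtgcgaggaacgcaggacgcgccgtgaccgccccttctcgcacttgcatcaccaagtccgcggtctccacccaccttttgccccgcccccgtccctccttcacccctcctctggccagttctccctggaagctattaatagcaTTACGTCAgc
The capitals, TTACGTCA, lie 10 to 3 bases before the start. Searched on both strands, these letters occur in 146 of 32817 promoter windows of the same length (0.445%), and the full palindrome TGACGTCA in 508 (1.55%). The same windows of Sox11 and Prdm12 hold neither. A match describes the letters only, and the files carry no binding data.

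Other genes of the axon injury programme had no common direction. Of 30 listed nerve injury genes 21 were expressed enough to be tested, their median log2 fold was -0.06 against 0.01 for all genes, and 10 of the 21 were positive. Atf3 and Sox11 were the only members higher in all 4 animals (2 of 21, against 8.77% of all genes). Stmn4, a neuronal stathmin, was the only member lower in all 4 (1 of 21, against 10.5% of all genes). Gap43, a growth cone protein, was at 213, 301, 240 and 197 CPM without and 249, 222, 196 and 214 CPM with formalin, so its direction was mixed. Jun, the partner of ATF3 in injured neurons, was at 63.6 ± 9.89 CPM without and 57.6 ± 9.8 CPM with formalin (SD, n = 4 each).

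Gal, the neuropeptide galanin of injured neurons, was at 13.2, 66.7, 15.3 and 11.2 CPM without and 14.1, 19.5, 7.69 and 10.7 CPM with formalin. The noninjected library of control 4 stood far above the rest, and the log2 fold was -0.70 ± 0.31 (SE; adjusted p = 0.500, edgeR). In intact animals Gal rose by 0.62 ± 0.10 (SE; adjusted p = 0.0134, edgeR) and was higher in 5 of 5. The difference between the folds was -1.33 ± 0.36 (SE; adjusted p = 0.112, edgeR interaction), which did not pass. Hspb1, a small heat shock protein of injured neurons, was lower in 3 of 4 animals, at 52.3 ± 7.66 CPM without and 42 ± 4.74 CPM with formalin. Anxa1, the anti-inflammatory annexin A1, was at 57.4, 48.1, 50.8 and 43.3 CPM without and 40.7, 66.5, 140 and 96.9 CPM with formalin. It was lower in control 1 and higher in the other animals, and was the 1 of 21 nerve injury genes that passed without control 1 (log2 fold 1.03 ± 0.18, SE; adjusted p = 0.0246, edgeR), where 1.9% of all genes passed higher and 0.549% lower. Another 9 members, among them Sprr1a, Npy, Ecel1, Reg3b and Il6, had at most 29 counts in any of the 8 libraries and were not tested.

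Immediate early genes, which report recent activity of a cell, split in direction. Of 28 listed, 25 were tested, with a median log2 fold of 0.09 and 16 positive. Fosl2 and Egr1 were higher in all 4 animals (2 of 25, against 8.77% of all genes). Ier5l, Jund and Dusp1 were lower in all 4 (3 of 25, against 10.5% of all genes). Fos was at 7.52, 13.0, 4.61 and 5.74 CPM without and 5.34, 12.9, 7.79 and 6.62 CPM with formalin, with no shared direction. Egr1, a zinc finger transcription factor, was at 16.4, 38.9, 17.4 and 16.5 CPM without and 16.8, 45.2, 27.9 and 20.9 CPM with formalin. Its fold was 0.31 ± 0.13 (SE; adjusted p = 0.500) in deleted animals and -0.49 ± 0.09 (SE; adjusted p = 0.018) in intact animals, both by edgeR. The difference of 0.80 ± 0.16 had an adjusted p of 0.0900 in the edgeR interaction test. Jund, a member of the AP-1 family, was at 21.6, 35.0, 27.6 and 32.2 CPM without and 18.2, 19.0, 22.3 and 18.5 CPM with formalin. The groups overlapped only between control 1 without and icKO 4 with formalin. Its fold was -0.56 ± 0.14 over 4 animals and -0.66 ± 0.15 without control 1 (adjusted p = 0.500 and 0.0434, edgeR). Jund was the 1 of 25 that passed without control 1, against 0.549% of all genes lower in that fit.

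The 20 genes named by rule, 10 in each direction, were those of smallest unadjusted p with 1 direction in all 4 animals. The rule selected them on these differences, so their folds are a description. On the higher side were Mobp, a myelin-associated gene, the mitochondrial leucine transfer RNA mt-Tl1 (log2 fold 0.66 ± 0.11, SE) and several genes best known from myeloid cells. Mobp was at 2.25, 2.63, 1.93 and 3.21 CPM without and 8.83, 4.04, 5.28 and 11.9 CPM with formalin, with no overlap between the groups. Its log2 fold of 1.5 ± 0.25 (SE) was the highest of the 10, and the intact animals gave 0.28 ± 0.25.

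Cd300ld, a myeloid cell surface receptor, was at 2.81, 3.99, 5.03 and 5.55 CPM without and 4.15, 9.79, 8.40 and 12.3 CPM with formalin. Gpr34, a lysophosphatidylserine receptor of macrophages and microglia, was at 2.53, 2.91, 3.69 and 5.37 CPM without and 3.62, 5.82, 5.94 and 18 CPM with formalin. Both were lowest in control 1 in either group. Siglech, a sialic acid receptor of microglia and plasmacytoid dendritic cells, was at 2.45 ± 0.47 CPM without and 4.93 ± 2.23 CPM with formalin. Clec4n, the C-type lectin dectin-2, was at 1.7 ± 0.697 CPM without and 3.52 ± 2.19 CPM with formalin. Hpgd, which inactivates prostaglandins, was at 8.03, 9.20, 13.2 and 19.7 CPM without and 10.5, 18.5, 21.1 and 62.3 CPM with formalin, so the groups overlapped although each pair was higher. Il33, an alarmin cytokine of stromal cells, was at 8.53, 11.4, 10.98 and 16.7 CPM without and 9.71, 17.2, 17.5 and 33.9 CPM with formalin. The remaining higher genes were Naalad2, a peptidase, with a fold of 0.64 ± 0.15, and Prss34, a mast cell and basophil protease, with 0.86 ± 0.19 (SE).

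On the lower side Mir6236, a microRNA gene, and Lars2, the mitochondrial leucyl-tRNA synthetase, stood out by level. Mir6236 was at 432, 388, 770 and 846 CPM without and 182, 148, 110 and 245 CPM with formalin, and the groups did not overlap. Its log2 fold was -1.80 ± 0.25 (SE; adjusted p = 0.500 by edgeR and 0.000618 by DESeq2). The intact animals showed -0.03 ± 0.14, and the difference of -1.76 ± 0.32 had an adjusted p of 0.0900 (edgeR interaction). Lars2 was at 770, 582, 1425 and 2143 CPM without and 389, 419, 328 and 787 CPM with formalin, with a fold of -1.25 ± 0.25 (SE).

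The mature microRNA of this locus is shown so that the counted gene is clear, from RefSeq (GRCm38.p6, chr9:110281353-110281371, plus strand), with the seed, bases 2 to 8, in capitals.
mmu-miR-6236: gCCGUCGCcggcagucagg
No other of the 1679 mature mouse microRNAs in that table has the same seed. The libraries are of polyA RNA, so these counts are reads over the gene and not a measure of the mature microRNA. A deposited identifier that the name table does not pair with a symbol, ENSMUSG00000119584, was likewise lower in all 4 animals. It was at 10442, 9154, 17521 and 27941 CPM without and 4971, 4754, 3451 and 9698 CPM with formalin, a log2 fold of -1.47 ± 0.23 (SE). The predicted genes Gm10800 and Gm10801, left out of the named genes by rule, were also called lower by DESeq2 (log2 folds -1.48 and -1.77). Whether the lower values of these transcripts and of Lars2 have a common source, in the tissue or in library preparation, was not tested.

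Among the other lower genes, Pcdh10, a protocadherin of neurons, was at 57.4, 62.7, 70.4 and 71.0 CPM without and 49.8, 41.9, 45.7 and 51.7 CPM with formalin, with no overlap. Shf, a signalling adaptor, was at 16.2, 33.0, 20.8 and 25.1 CPM without and 13.9, 12.6, 12.2 and 10.96 CPM with formalin, also without overlap. Zfp771, a zinc finger protein, was at 31.4 ± 7.04 CPM without and 19.5 ± 4.12 CPM with formalin (SD, n = 4 each). Nog, the BMP antagonist noggin, lay on the lower side in both sets of animals, with a fold of -0.80 ± 0.18 in deleted and -0.61 ± 0.16 in intact animals (SE; adjusted p = 0.500 and 0.0807, edgeR). Ier5l had a fold of -0.69 ± 0.16, and Ass1, of arginine synthesis, -0.57 ± 0.13 (SE). Srd5a2, a steroid reductase, reached 42.8 CPM only in the noninjected library of control 4 and was at 0.397 to 13.1 CPM in the others. Ighg3, an immunoglobulin segment shared in sequence with its relatives, was at or under 0.247 CPM in both libraries of icKO 4 and icKO 5, so its value rests on control 1 and control 4.

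**Figure D2:**
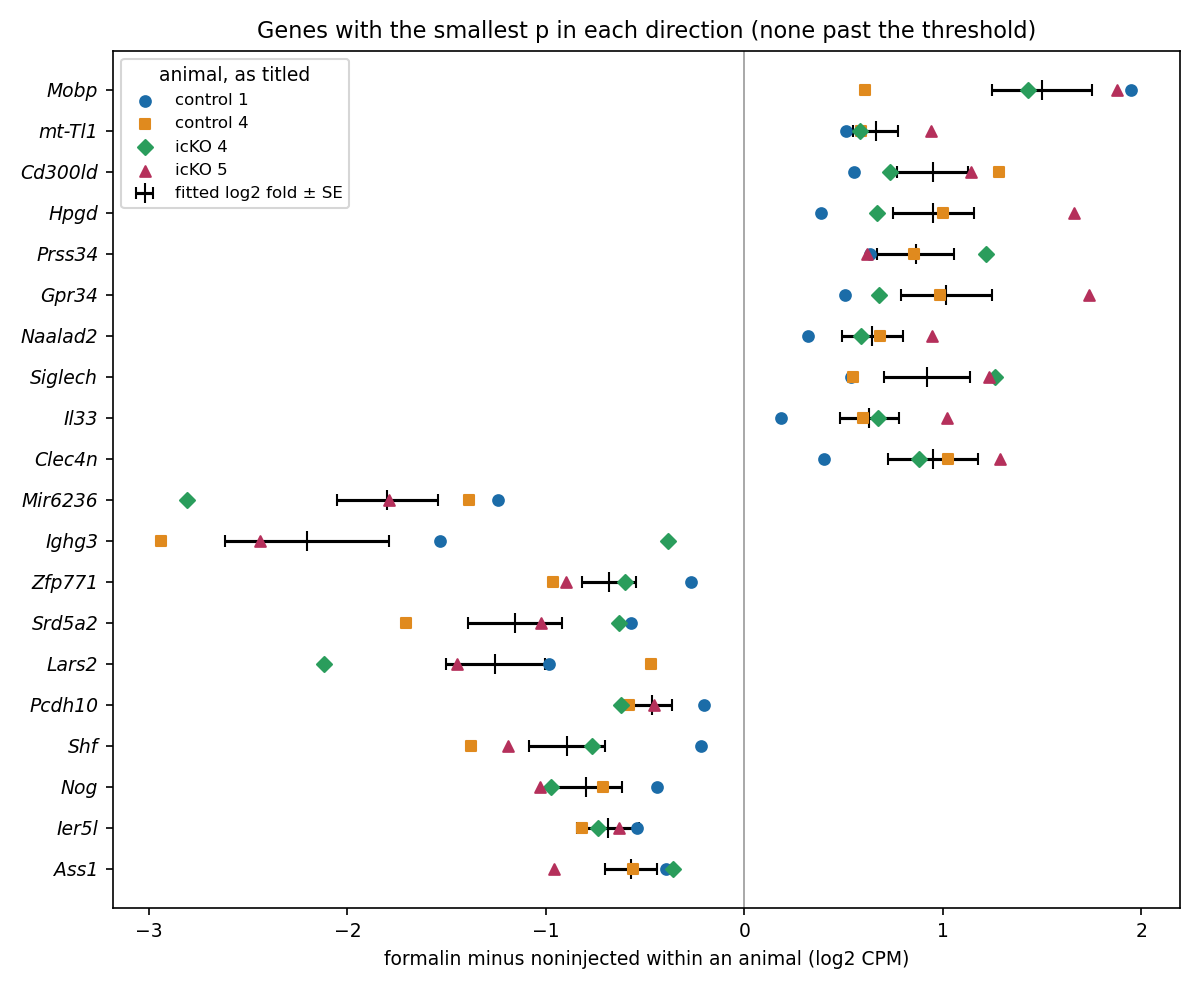
Within-animal difference of the 20 named genes (formalin minus noninjected, log2 CPM), 1 coloured point per deleted animal, with the fitted log2 fold and its SE as a black mark and bar. By the choice of genes all 4 points lie on 1 side of 0, and Mir6236 reaches -2.81 in icKO 4.

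Transcripts encoded in mitochondria, which carry subunits of the respiratory chain, were higher with formalin in each animal. All 6 tested members of the list (mt-Nd1, mt-Nd2, mt-Nd4, mt-Nd5, mt-Co1 and mt-Cytb) were higher in all 4 animals, against 8.77% of all genes, with a median log2 fold of 0.56. Their folds lay close together (0.53 to 0.65), and the 6 genes are not independent, so they do not count as 6 separate observations. The protein gene mt-Cytb, cytochrome b of complex III, had a log2 fold of 0.57 ± 0.14 (SE; adjusted p = 0.500 by edgeR and 0.0326 by DESeq2). The share of all counts on mitochondrially encoded genes was 3.34, 3.40, 4.01 and 4.35% without and 3.86, 5.56, 5.38 and 8.75% with formalin. The groups overlapped between animals, and the difference within a pair was smallest in control 1. Medians of the mitochondrial list within animals were 0.22, 0.71, 0.38 and 0.93. They were largest in control 4 and icKO 5, whose formalin libraries also held the most muscle transcripts (473 and 2732 CPM, summed). The part of muscle tissue in these values was not tested. In intact animals the median fold of the mitochondrial list was -0.12. Of 13 mitochondrial protein genes, 6 had at most 16 counts in each of the 8 libraries, including mt-Co2 and mt-Co3 at 0, so the deposited counts cover only some of the mitochondrial genome. Reads from mitochondrial copies in the nuclear genome can be split by the counting, whose setting for such reads is not stated.

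**Figure D3:**
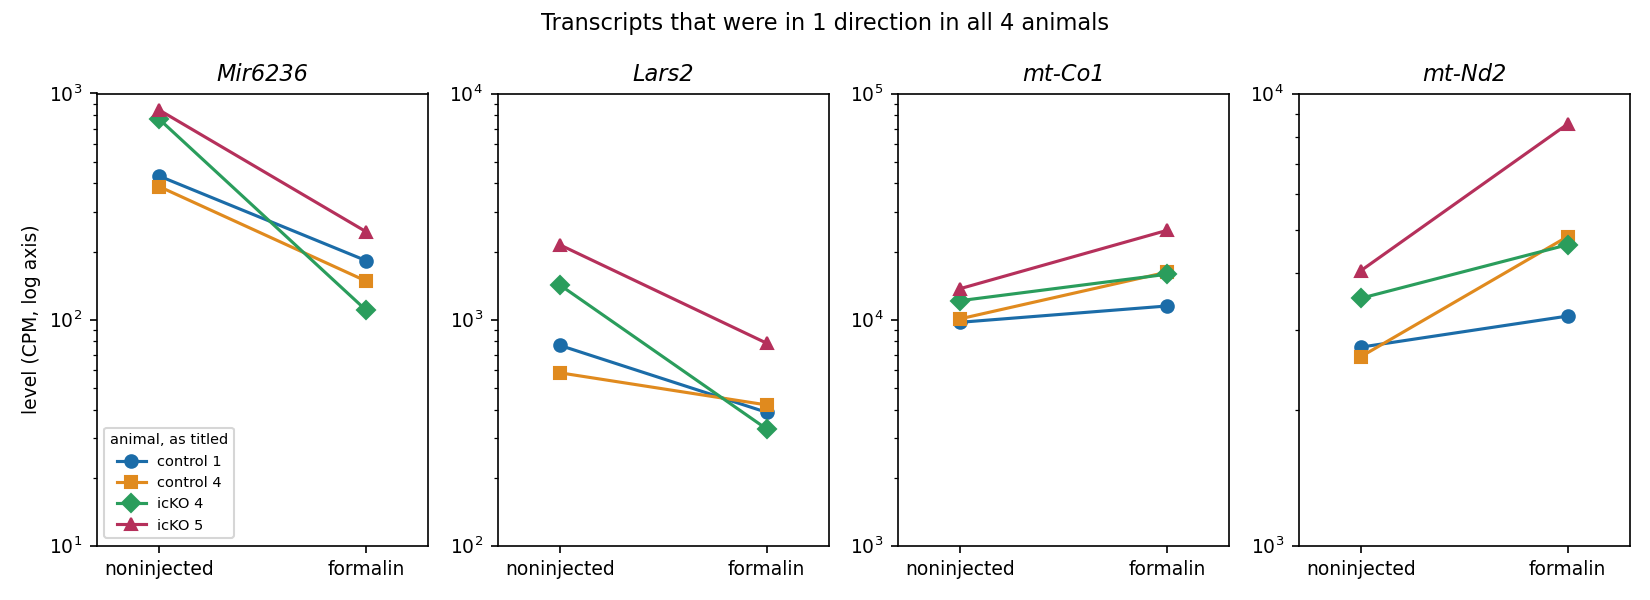
Mir6236, Lars2, mt-Co1 and mt-Nd2 in CPM (log axis) in the noninjected and the formalin library, 1 line per deleted animal. Mir6236 and Lars2 were lower and mt-Co1 and mt-Nd2 higher with formalin in all 4 animals, Mir6236 going from 770 to 110 CPM in icKO 4.

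General markers of sensory neurons were lower with formalin in 3 animals and level in control 1. All 14 had a negative fold, with a median of -0.17, and their median within-animal differences were 0.02, -0.14, -0.22 and -0.48. Nefl, Nefm and Nefh, the neurofilament subunits, and Uchl1, a neuronal ubiquitin hydrolase, were lower in all 4 animals. In the list 4 of 14 were lower in all 4, against 10.5% of all genes. Prph, the filament peripherin of small neurons, was at 1761 ± 183 CPM without and 1372 ± 296 CPM with formalin (SD, n = 4 each), a fold of -0.38 ± 0.13 (SE). CPM is a share of each library. In these bulk samples fewer neurons, less RNA per neuron and more RNA from other cells or tissue therefore cannot be told apart. The intact animals gave a median of 0.10 for the same list, and 0 of the 14 passed the edgeR test of the difference.

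Nociceptor genes lay on the same side. Of 16 tested, 15 were negative, with a median log2 fold of -0.18. Trpv1, the capsaicin and heat receptor, was at 195, 371, 169 and 152 CPM without and 204, 177, 101 and 94.6 CPM with formalin. It was lower in 3 animals and slightly higher in control 1. Its fold was -0.61 ± 0.17 over 4 animals (SE; adjusted p = 0.500) and -0.83 ± 0.13 without control 1 (SE; adjusted p = 0.0141, edgeR). Gfra3, the artemin receptor, was at 38.3, 102, 39.4 and 36.0 CPM without and 44.8, 38.3, 23.6 and 21.1 CPM with formalin. Without control 1, 4 members passed, all lower, Prdm12, Trpv1 and Gfra3 among them, against 0.549% of all genes lower in that fit. The peptide genes of nociceptors overlapped between the groups. Calca, encoding the peptide CGRP, was at 1580 ± 301 CPM without and 1420 ± 143 CPM with formalin, and Tac1, encoding substance P, at 516 ± 188 and 449 ± 74.8 CPM (SD, n = 4 each).

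Ion channels of nociceptors had mostly negative folds, and none of 34 passed over the 4 animals. Of the 34 tested, 2 had a positive fold, and the median was -0.17. The medians within animals were 0.07, 0.00, -0.24 and -0.58, so the medians lay below 0 in icKO 4 and icKO 5. Chrnb4, a nicotinic receptor subunit, and Kcnk18, a background potassium channel, were lower in all 4 animals. These were 2 of 34, against 10.5% of all genes. Chrnb4 was at 3.59, 28.6, 2.68 and 2.41 CPM without and 3.31, 4.04, 0.974 and 1.20 CPM with formalin, and its noninjected level in control 4 stood apart. Hcn2, a pacemaker channel, was at 43.1, 54.4, 62.9 and 90.4 CPM without and 45.1, 29.9, 50.6 and 30.5 CPM with formalin. Trpa1, which formalin activates directly, was at 91.9, 98.6, 76.2 and 52.0 CPM without and 90.1, 81.0, 70.3 and 62.4 CPM with formalin, a fold of -0.04 ± 0.11 (SE). Scn10a and P2rx3, a sodium channel and an ATP receptor of nociceptors, had folds of -0.17 ± 0.17 and -0.05 ± 0.13 (SE). Without control 1, Trpv1, Cacna1h, a T-type calcium channel, and Chrnb4 passed, all lower (3 of 34, against 0.549% of all genes). For all 34 channel genes the formalin fold was below that of intact animals. The same held for 14 of 14 general sensory neuron and 15 of 16 nociceptor genes, so it was not particular to channels. The share of all genes below the intact fold is not given here. For none of the channel genes did the difference pass (0 of 34, edgeR interaction), as for all genes (0 of 17757, 0%).

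Receptors through which neurons are inhibited or sensitised were on the lower side or near 0. Of 15 inhibitory receptors 3 were positive, and the median log2 fold was -0.25. Oprl1, Gabbr2 and Adora1, the receptors of nociceptin, GABA and adenosine, were lower in all 4 animals (3 of 15, against 10.5% of all genes). Adra2c, an alpha-2 adrenergic receptor, was at 9.21, 17.0, 16.4 and 15.7 CPM without and 10.1, 6.75, 9.63 and 5.69 CPM with formalin. Adra2c and Sstr2, a somatostatin receptor, passed without control 1, with folds of -1.18 ± 0.18 and -0.80 ± 0.18 (SE; adjusted p = 0.0121 and 0.0452, edgeR). That is 2 of 15, against 0.549% of all genes lower in that fit. Receptors of inflammatory mediators had a median of -0.09 over 23 genes, and 2 of the 23 passed without control 1, both lower. Among neuropeptides, 13 of 20 were tested, 4 were positive and the median was -0.16. Nppb, a peptide of itch neurons, was at 15.8, 15.3, 14.3 and 14.7 CPM without and 18.1, 33.5, 13.9 and 28.7 CPM with formalin, and Cartpt was at 87.7 CPM in noninjected control 4 against 20.1 to 37.0 CPM in the other 7 libraries.

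Satellite glia, which wrap the neuron cell bodies, had 11 of 13 markers positive with a median log2 fold of 0.14. Fabp7, a lipid carrier of satellite glia, was at 330, 372, 244 and 209 CPM without and 372, 547, 306 and 461 CPM with formalin. Fabp7 and Slc1a3, a glutamate transporter, were among the markers higher in all 4 animals (3 of 13, against 8.77% of all genes). None of the 13 passed over 4 animals, and 0 of 13 passed without control 1. Gfap, a glial filament gene listed here with the genes of central nervous tissue, was at 3.20, 2.77, 2.18 and 3.27 CPM without and 2.65, 5.09, 5.48 and 7.15 CPM with formalin. It passed without control 1 (1.10 ± 0.22, adjusted p = 0.0321, edgeR), as 1 of the 5 tested genes of that list, against 1.9% of all genes higher. Schwann cell genes had a median of -0.03, with 5 of 15 positive.

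Macrophage genes were higher with formalin in 3 animals. All 18 had a positive fold, with a median of 0.41, and the medians within animals were -0.11, 0.39, 0.44 and 0.98. Lyz2, the macrophage lysozyme, was at 215, 227, 263 and 219 CPM without and 190, 351, 552 and 539 CPM with formalin, so the groups overlapped through control 1 alone. Ccr2, the chemokine receptor of recruited monocytes, was at 15.2, 20, 19.96 and 18.1 CPM without and 15.3, 27.7, 43.2 and 62.6 CPM with formalin. Adgre1, Cd14, Cd163 and Ccr2 were the 4 members higher in all 4 animals (4 of 18, against 8.77% of all genes). Without control 1, Adgre1, Mrc1, Itgam, Lyz2 and Tyrobp passed, all higher, against 1.9% of all genes higher in that fit.

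Neutrophil genes were lower with formalin in control 1 and higher in the other animals. Their summed level over 13 genes was 1277, 883, 1379 and 512 CPM without and 831, 1446, 3810 and 1719 CPM with formalin. S100a8, a calprotectin subunit, was at 266, 158, 231 and 108 CPM without and 163, 270, 728 and 417 CPM with formalin. Its fold was 0.94 ± 0.45 over 4 animals (adjusted p = 0.500) and 1.46 ± 0.22 without control 1 (adjusted p = 0.0183, edgeR). Mmp8, the neutrophil collagenase, was at 19.3, 12.3, 27.3 and 5.55 CPM without and 13.2, 35.5, 87.1 and 28.1 CPM with formalin, and without control 1 its fold was 1.81 ± 0.17 (adjusted p = 0.00251, edgeR). Without that animal 11 of 13 members passed, all higher, against 1.9% of all genes, a count added after the data were seen.

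Red cell and proliferation genes were, like neutrophil genes, lower with formalin in control 1 and higher in the other animals by their list medians. Summed over 9 red cell genes, the level was 807, 372, 775 and 907 CPM without and 527, 490, 1700 and 1962 CPM with formalin, and 7 of 9 passed without control 1, all higher, against 1.9% of all genes. Hbb-bs, an adult beta globin with a near-identical copy, was at 312, 147, 310 and 399 CPM without and 218, 188, 732 and 927 CPM with formalin. Mki67, a marker of dividing cells, was at 49.9, 18.2, 40.9 and 29.0 CPM without and 22.6, 44.7, 95.9 and 63.0 CPM with formalin. Of 12 proliferation genes, 4 passed without control 1, all higher, against 1.9% of all genes. The medians within animals were -0.64, 0.27, 1.18 and 1.10 for red cell genes and -0.72, 0.38, 1.06 and 0.52 for proliferation genes. The part of blood, which red cell genes mark, in the neutrophil and macrophage values was not tested.

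**Figure D4:**
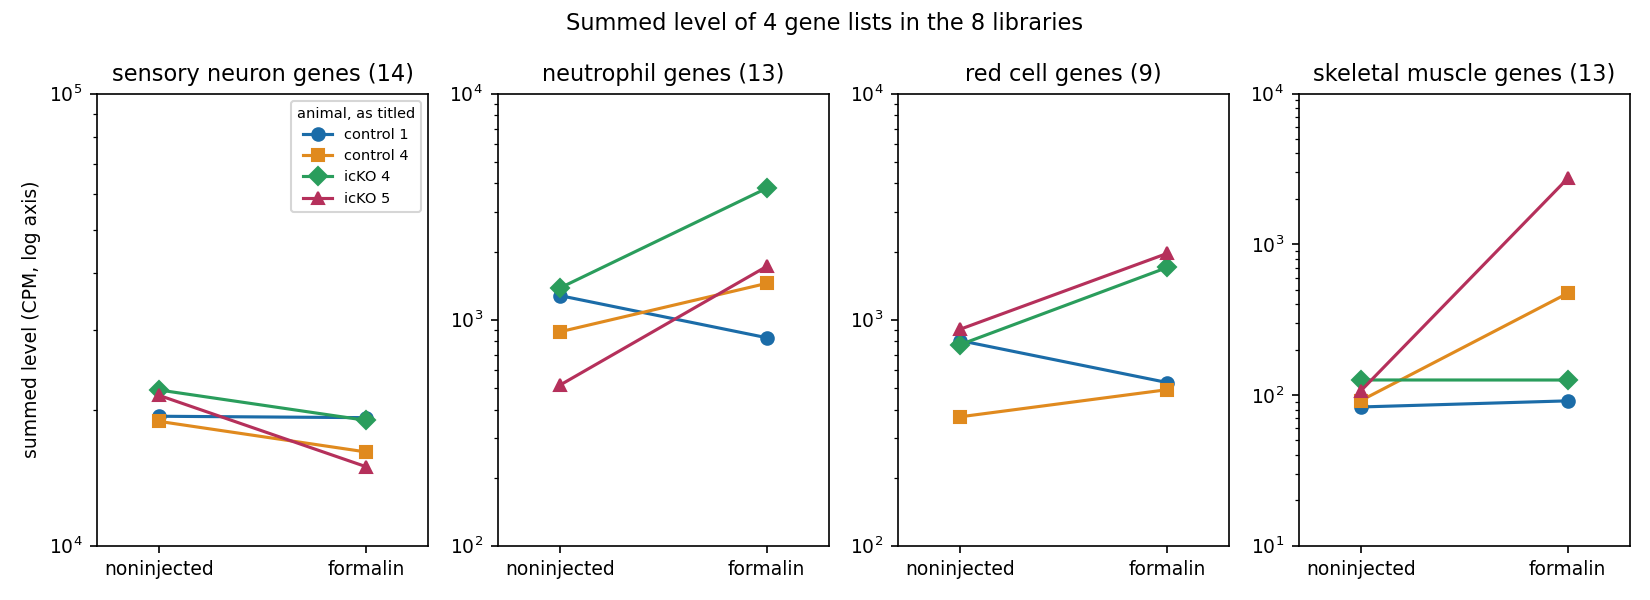
Summed CPM (log axis) of sensory neuron, neutrophil, red cell and skeletal muscle genes in the noninjected and formalin library of each deleted animal, joined by a line per animal. Neutrophil and red cell sums were lower with formalin in control 1 and higher in the other 3 animals, and the skeletal muscle sum reached 2732 CPM in icKO 5.

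Connective tissue and muscle transcripts also differed within animals. Fibroblast genes were positive in 12 of 12, with a median log2 fold of 0.39 and medians within animals of -0.10, 0.35, 0.83 and 0.62. Dcn, the matrix proteoglycan decorin, was at 1266 ± 456 CPM without and 2290 ± 1492 CPM with formalin (SD, n = 4 each). Its fold was 0.71 ± 0.18 in deleted and -0.40 ± 0.09 in intact animals (SE; adjusted p = 0.500 and 0.0434, edgeR), and the difference of 1.12 ± 0.21 had an adjusted p of 0.0900. Dcn, Lum and Pdgfra, 3 of 12, passed without control 1, all higher, against 1.9% of all genes. Skeletal muscle genes summed to 83, 92, 126 and 106 CPM without and 91, 473, 126 and 2732 CPM with formalin, so muscle transcripts were high in the formalin libraries of icKO 5 and control 4. Ckm, the muscle creatine kinase, reached 188 CPM in the first and 30.6 CPM in the second, and was at 0.898 to 3.76 CPM in the other 6 libraries. The part of muscle tissue in other values of these libraries was not tested. Mitochondrial transcripts were also highest in icKO 5 with formalin, and their medians within animals were largest in icKO 5 and control 4 (0.93 and 0.71).

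**Figure D5:**
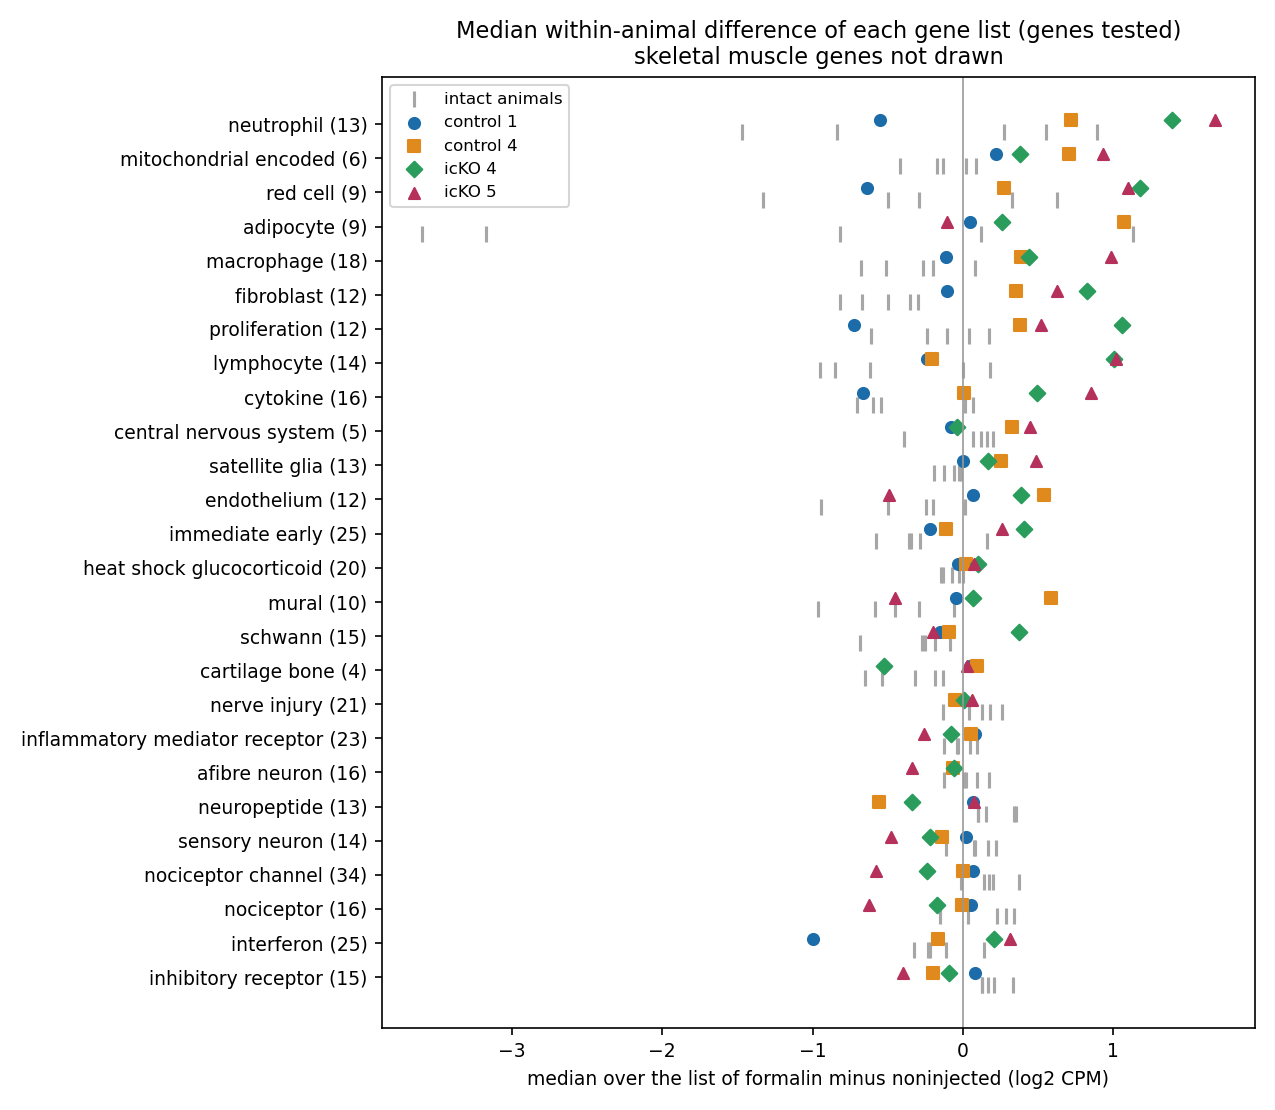
Median within-animal difference (formalin minus noninjected, log2 CPM) of each gene list, with coloured points for the 4 deleted animals and grey ticks for the 5 intact animals; skeletal muscle is not drawn. Neutrophil medians run from -0.55 in control 1 to 1.68 in icKO 5, and sensory neuron medians from 0.02 to -0.48.

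Cytokine genes had mostly positive and interferon-induced genes mostly negative folds, and the direction of both lists differed between animals. Of 26 cytokine and mediator genes 16 were tested, 11 with a positive fold and a median of 0.20 on the log2 scale. Their medians within animals were -0.66, 0.01, 0.50 and 0.85, and 2 of 16 passed without control 1, both higher, against 1.9% of all genes. Il6, Tnf, Cxcl1, Cxcl2 and Nos2 had at most 21 counts in any library. Il1b, the cytokine interleukin-1 beta, was at 2.81, 1.74, 1.93 and 1.23 CPM without and 2.21, 2.51, 4.87 and 3.18 CPM with formalin. It was lower in control 1 and higher in the rest. Of 25 interferon-induced genes 22 had a negative fold, with a median of -0.19 and 0 passing without control 1. They had medians of -1.0, -0.16, 0.21 and 0.31 within animals. Stat2 and Usp18 were lower in all 4 (2 of 25, against 10.5% of all genes). Usp18 was at 15.0, 12.2, 7.88 and 5.99 CPM without and 4.90, 7.67, 7.38 and 5.32 CPM with formalin, so most of its fold of -0.65 ± 0.26 (SE) came from control 1 and control 4.

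The formalin effect of deleted animals was also set against that of the 5 intact animals in 1 fit of 18 libraries, which share no library between the effects. No gene passed (0 of 17757, 0%), with a smallest adjusted p of 0.0900 (edgeR interaction). At an unadjusted p under 0.05 there were 3937 genes (22.2%), 2025 with a more positive fold in deleted animals (11.4%) and 1912 with a more negative one (10.8%), and DESeq2 called 774. Without control 1 the same edgeR test called 2524 genes. In the intact animals alone 201 of 16749 genes passed (1.2%).

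The 10 genes of smallest p in that interaction, 5 in each direction, had opposite folds in deleted and intact animals. They were chosen on this difference, which favours opposite folds, so the folds and their adjusted p are a description. Rhoj, an endothelial small GTPase, was higher in all 4 deleted animals (0.34 ± 0.11, SE) and lower in all 5 intact animals (-0.54 ± 0.09, adjusted p = 0.00829, edgeR), a difference of 0.88 ± 0.14. Ebf2, a transcription factor of connective tissue cells, had folds of 0.58 ± 0.16 and -0.44 ± 0.08 (SE). Pdgfrl and Snhg18 behaved in the same way, with differences of 1.23 ± 0.20 and 0.84 ± 0.15 (SE), and Cd300ld differed by 1.49 ± 0.22. In the opposite direction Adcy2, an adenylyl cyclase, had folds of -0.51 ± 0.13 in deleted and 0.33 ± 0.07 in intact animals (SE), the latter with an adjusted p of 0.037 (edgeR). Pde8b, a cyclic AMP phosphodiesterase, had folds of -0.45 ± 0.14 and 0.35 ± 0.07 (SE). Ass1, Shf and Pcdh10 likewise had negative folds in deleted and positive folds in intact animals, with differences of -0.84 ± 0.15, -1.08 ± 0.20 and -0.61 ± 0.11 (SE). All 10 had an adjusted p of 0.0900 for the difference (edgeR interaction), above the threshold.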

How the data were processed

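The authors deposited 1 table per library with raw counts per Ensembl gene, used here as counts. The submitters' processing notes name the GRCm39 build and the tools STAR 2.7.8a, featureCounts 2.0.1 and bcl2fastq 2.20.0.422. The kit does not mark strand, per the labels' protocols. Not given in the sources used here are the annotation release and the counting of strand and multi-mapped reads; overlapping, antisense and near-identical genes are therefore uncertain. Names came from a table that matched 52083 of 55416 identifiers (94.0%), holding 97.2 to 99.6% of a library's counts. Promoter and microRNA sequences are from RefSeq (GRCm38.p6) and were not joined to the counts by position.

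Libraries were grouped by the genotype word of the deposited names, since it differs from the title in 4 of 10 animals (control 1, control 4, icKO 2 and icKO 3), and were paired by the animal number they share. Deviations of the libraries of an animal from their group means correlated at 0.14, 0.35, 0.12 and 0.28. Within a group, chi-square per degree of freedom between libraries was 9.92 to 91.3, so none repeats another. The authors' counts were fitted with edgeR 4.0.16 in R 4.3.3 (robust quasi-likelihood F test, TMM scaling, filterByExpr, animal as block, Benjamini-Hochberg, threshold 0.05). The design leaves 3 residual degrees of freedom. The interaction fit took 18 libraries of 9 animals, and the intact effect came from a fit of the 5 intact animals alone. Within-animal differences are of log2 CPM (counts scaled to 1e+06, prior count 1), and each SE is the fold over the root of its F statistic. Prdm12, Atf3 and Sox11 were also tested by exact two-sided sign-flip permutation. The fit was tested on simulated data with the same dispersion for every gene and the same fold in every animal. That simulation does not cover animals that differ in direction, as these did.

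Of 447 entries in 27 gene lists, 445 matched and 403 were tested. The lists, members and rules were chosen with earlier results of these data known. Named genes are the markers, 10 genes per direction with the smallest p among those with 1 direction in all 4 animals (mean log2 CPM of at least 1, predicted genes left out), 5 per direction of the interaction, and list members. Members named because a count was 5 or less, and the unnamed identifier, were chosen after their values were seen. Alternatives were RLE size factors, no filter, DESeq2 1.42.0, limma-voom (limma 3.58.1), no block, leaving out each animal, the titles as genotype, the animal with the small library, the 2 animals whose records agree and all 18 libraries in 1 fit. The counts without control 1 for lists and for genes in 1 direction were added after the data were seen. Values of some listed genes are not reported here.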

Additional observations from a re-analysis of the deposited data

Results flagged for a closer look

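In 6 of 134 values or list medians compared over the 4 deleted animals, 1 animal lay far from the other 3. The rule would flag about 1 of 20 such groups if the values were independent and normal. The 134 come from the same 4 animals and some were chosen on these differences. That rate therefore cannot say whether 6 is many or few. All are log2 differences of formalin minus noninjected. Atf3 was at 1.41 in icKO 5 against 0.34 to 0.46 in the others. Nefm, a neurofilament subunit, was at -1.10 in icKO 5 against -0.19 to -0.13. Cxcr2, a chemokine receptor of neutrophils, was at -0.61 in control 1 against 1.33 to 1.57, and Mki67 at -1.14 in control 1 against 1.12 to 1.29. The median over large-diameter (A-fibre) neuron genes was -0.34 in icKO 5 against -0.07 to -0.06. The median over 4 cartilage and bone genes was -0.52 in icKO 4 against 0.03 to 0.09.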

How the results depend on the processing

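The count of genes between formalin and noninjected ganglia was 0 with RLE size factors, limma-voom, no replicate block (smallest adjusted p 0.572), the genotype of the titles and all 18 libraries in 1 fit. It was 755 without a filter on low counts (700 of them among the genes of the main test). That fit also passed the muscle gene Ckm, high with formalin in icKO 5 and control 4 only. The count was 16 by DESeq2, 5 with the animal of the small library and 422 with only icKO 4 and icKO 5. The fit of only icKO 4 and icKO 5 has fewer residual degrees of freedom than the main fit, and the small library holds only 2829 counts. Leaving out 1 animal gave 0 to 424. The interaction gave 2322 genes without a filter and 774 by DESeq2, and 0 to 2524 on leaving out 1 of the 9 animals, of which only control 1 (2524) and control 2 (2 genes) gave any. It gave 0 with no replicate block (smallest adjusted p 0.212). Atf3 had a log2 fold of 0.64 without a filter, past the threshold, 0.41 to 0.76 over the animals left out and 0.93 with only icKO 4 and icKO 5. Over the animals left out, Prdm12 ranged from -0.58, past the threshold without control 1, to -0.25, and Sox11 from 0.10 to 0.34. With only icKO 4 and icKO 5 Prdm12 was at -0.62 and Sox11 at 0.36, and under the genotype of the titles Prdm12 was at -0.17. Genes in 1 direction in every animal numbered 3336 over 4 animals and 7915 over 3 without control 1. The cause of these differences was not tested.

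Of 107 named genes, 93 kept their direction in every one of the 13 alternatives in which they were tested (1386 pairs of gene and alternative, since a few genes were not tested in some). Under the genotype of the titles, the direction turned for Rhoj (-0.039), Pdgfrl (-0.061), Gal (0.014), Gap43 (0.025), Jun (0.10), Fos (-0.086), Calca (0.044), Tac1 (0.091), Trpa1 (0.087), Fabp4 (-1.21), Stat2 (0.026) and Dpt (-0.33). Leaving out 1 animal turned Gap43 (-0.20 to 0.019) and Trpa1 (-0.13 to 0.038) without control 4, Fos (-0.088 to 0.29) without icKO 4, and Scn10a (-0.28 to 0.059) and P2rx3 (-0.16 to 0.11) without icKO 5. Trpa1 was at 0.050 with only icKO 4 and icKO 5. The cause was not tested. Below 1 CPM few counts stand behind a value, which limits its precision.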

Other observations

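Lymphocyte genes had a median log2 fold of 0.33, with 12 of 14 positive and medians within animals of -0.24, -0.20, 1.00 and 1.02. Iglc1, an immunoglobulin light chain segment, was at 11.7, 11.5, 2.35 and 7.65 CPM without and 15.8, 18.3, 10.3 and 15.8 CPM with formalin, and was higher in all 4 animals. Cd79a, a B cell receptor subunit, was at 2.75, 3.15, 3.86 and 2.04 CPM without and 2.60, 4.17, 8.10 and 4.12 CPM with formalin.

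Endothelial genes had medians within animals of 0.06, 0.54, 0.39 and -0.49, and vessel wall (mural) genes of -0.05, 0.59, 0.07 and -0.45, so both lists were lowest in icKO 5. Adipocyte genes had a median of 0.41 in deleted and -1.74 in intact animals, where single animals ranged from -3.60 to 1.13. Heat shock and glucocorticoid-responsive genes had a median of 0.00 over 20 genes, with 10 positive.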
